A study of Mus musculus with 3 samples.

Results

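Setd2, Nsd1, Nsd2, Nsd3, Ash1l, Setd3 and Setd5 are 7 mouse genes that encode SET domain proteins known for, or reported in, the methylation of lysine 36 of histone H3 (H3K36). They were chosen by name, and their data were the H3K36me3 peaks whose midpoint lay in the gene body as annotated in GENCODE M21. These genes were 7 of 11948 genes of all types with such a peak, and they held 331 of 120910 peaks. H3K36me3, the trimethylated form of H3K36, was measured by chromatin immunoprecipitation sequencing in regulatory T (Treg) cells. Treg cells are CD4+ T cells that restrain immune responses and depend on the factor Foxp3. CD3+CD4+Foxp3-YFP+ cells were sorted from spleen and large intestine (LI) of Foxp3Cre-YFP mice, in which the Foxp3 locus drives a Cre recombinase and the yellow fluorescent reporter. Both groups were C57BL/6 mice of the genotype labelled Foxp3-YFP, adult by the study's methods, no floxed Setd2 allele was named for either, and each library held the pooled cells of 7 male and 7 female mice. With 1 library per tissue there was no replicate, so each difference below is between 2 libraries and was not tested.

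H3K36 is methylated in steps. The NSD proteins and Ash1l add the first methyl groups, and Setd2 is the main enzyme that adds the last one, as it travels along transcribed genes on RNA polymerase II. The trimethyl mark therefore lies over the bodies of transcribed genes, usually rising toward the 3' end, and is read by proteins that repress cryptic transcription and steer DNA methylation, splicing and repair. What was measured here is the mark on the genes that encode these enzymes. It is neither the amount of the enzymes nor their activity.

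Values are mean RPKM coverage per peak, that is, read coverage normalised to the sequencing depth. Each library was scaled to the same total over all peaks, with factors of 1.016 for spleen and 0.984 for LI. The step between low values gave a depth of 29600000 aligned reads for spleen and 38100000 for LI. All 6 listed T cell and Treg genes carried peaks, with mean coverages over the gene body that summed to 72.1 RPKM in spleen and 70.4 RPKM in LI. Of 5 genes per lineage, 2 B cell genes (3.51 and 2.37 RPKM summed), 2 intestinal epithelium genes (0.744 and 1.41 RPKM) and 2 myeloid genes (24.4 and 23.6 RPKM, of which 23.7 and 22.9 RPKM were Cd68) had a peak. Most of the B cell sum lay on Cd79a (3.51 and 2.36 RPKM) and most of the epithelial sum on Epcam (0.69 and 1.27 RPKM). The listed genes without a peak included Ms4a1, Ebf1, Lyz2, Itgam, Spi1, Cdx2, Krt8 and Cdh1. Of the CD8 genes, Cd8b1 had 0.374 and 0.163 RPKM and Cd8a no peak. The part of other cells in the results was not tested.

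None of the 7 genes differed by 2-fold between the tissues when its peak values were summed. Over all 10886 genes with at least 20 RPKM in the 2 libraries together, 3.4% were over 2-fold higher in LI and 2.07% over 2-fold higher in spleen. The sums were lower in LI than in spleen in 5 of the 7 genes and slightly higher in Nsd2 and Setd3. The log2 ratios of LI over spleen ran from -0.31 in Ash1l to 0.050 in Nsd2, with a median of -0.16, against a median of 0.0049 and quartiles of -0.20 and 0.24 over all genes. A 95% interval for counting error, which took each read as 200 bp long, lay below 0 in Nsd1, Nsd3, Ash1l and Setd5 and above 0 in none of the 7. Over all genes, the interval lay below 0 in 15.3% and above 0 in 18.0%. Such an interval covers the sampling of reads, not the variation between mice or between preparations. In pooled cells, a smaller share of cells with the mark and less mark per cell cannot be told apart.

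The ratios moved with the base composition of the peaks. The peaks of the 7 genes had a median GC content of 42.9%, against 46.5% over all peaks. Over all peaks, the median log2 ratio was -0.41 in the tenth of peaks poorest in GC and 0.29 in the tenth richest in GC. After each peak was corrected for this trend, the interval lay below 0 in Nsd3 and Ash1l only and above 0 in none, against 15.6% and 10.9% of all genes. The corrected ratio of Setd5 turned to 0.090 and that of Setd2 to 0.072, and the median of the 7 genes was -0.0050. What produced the trend with GC content was not tested.

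**Figure D1:**
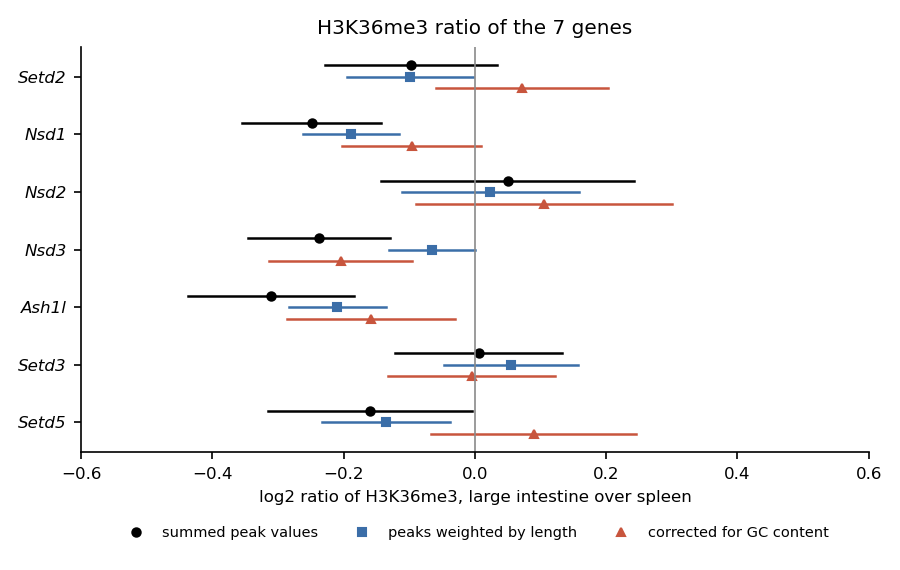
The log2 ratio of H3K36me3 in LI over spleen is plotted for each of the 7 genes from the summed peak values (circles), with peaks weighted by length (squares) and after correction for GC content (triangles). Bars are 95% intervals for counting error. Ash1l lies below 0 in all 3, and Setd5 lies at -0.16 before and at 0.090 after the correction.

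Setd2 (ENSMUSG00000044791.16, mm10 chr9:110532597-110618633, plus strand) encodes the main enzyme that trimethylates H3K36. Its 64 peaks summed to 646 RPKM in spleen and 604 RPKM in LI, a log2 ratio of -0.097 with a counting interval of -0.23 to 0.033. Of these peaks, 24 were higher in LI and 40 in spleen. The body had no peak in its first 10.9 kb. A small peak of 4.94 RPKM in spleen and 7.77 RPKM in LI ended just upstream of the annotated start. The 153 bases upstream of the outermost RefSeq start, at chr9:110532347-110532499 on the plus strand of GRCm38, are shown as the CpG-rich start that precedes this stretch without peaks, with the 16 CG dinucleotides in capitals and a GC content of 73.9%. Of all RefSeq promoter windows of 250 bases, 92.1% held a CG dinucleotide, at a median of 6.
Setd2 upstream of the start: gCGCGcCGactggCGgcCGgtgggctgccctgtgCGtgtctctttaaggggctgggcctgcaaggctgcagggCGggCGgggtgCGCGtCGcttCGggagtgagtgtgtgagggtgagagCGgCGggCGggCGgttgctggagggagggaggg

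In Setd2 the mean coverage was highest in segment 10 of 10 equal segments of the body, with a neighbouring peak included. It was 15.3 RPKM in spleen and 17.5 RPKM in LI, a log2 ratio of 0.20 with an interval of 0.016 to 0.39. Segments hold all bases under peaks, so segment 10 and the 3' part include 1.69 kb of a 26.2-kb peak centred outside Setd2. That peak ran on over Nradd and Nbeal2 and had 38.2 RPKM in spleen and 50.5 RPKM in LI. The 3' maximum and the higher LI value therefore cannot be credited to Setd2. In segment 4 the coverage was 7.93 RPKM in spleen and 5.55 RPKM in LI. That log2 ratio was -0.52 with an interval of -0.80 to -0.23, and -0.28 after the correction for GC content. The corrected ratio of segment 10 was 0.093. The log2 ratios of the 5' and 3' parts of equal length were -0.19, with an interval of -0.34 to -0.044, and 0.052, with an interval of -0.061 to 0.17. After the correction they were 0.0060 and 0.11, so the lower 5' part in LI was not seen, and the difference between the parts went from 0.24 to 0.10. The strongest peak of a gene is here the one with the highest sum over the 2 libraries. The longest Setd2 peak spanned 4.16 kb over coding sequence and had 12.5 RPKM in spleen and 13.1 RPKM in LI. The strongest, a peak of 0.404 kb, had 19.6 and 16.4 RPKM.

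The Setd2 peak with the lowest ratio among those of 1 kb or more, chr9:110565036-110566566, lay 33.2 kb from the start in an intron. It had 13.4 RPKM in spleen and 6.78 RPKM in LI, a log2 ratio of -0.94 with an interval of -1.51 to -0.36. Its GC content was 38.7%, and the corrected ratio was -0.66. Repeats, as masked in the RefSeq assembly, made up 45.9% of its bases, against a median of 16.6% in all peaks of 1 kb or more. This is the lowest ratio among the 101 long peaks of the 7 genes, so its central 200 bases are shown beside those of the other peaks with the most extreme ratios. Capitals mark CG dinucleotides, which are found in 85.1% of the central windows of all peaks, at a median of 2 per window. Each window lies in an intron of its gene and is written 5' to 3' on the strand of the gene, with coordinates on GRCm38.
Setd2, chr9:110565701-110565900, plus strand, lower in LI: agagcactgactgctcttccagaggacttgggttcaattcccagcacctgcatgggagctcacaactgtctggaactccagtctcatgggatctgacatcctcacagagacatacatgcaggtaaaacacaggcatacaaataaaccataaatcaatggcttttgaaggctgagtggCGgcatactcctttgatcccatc
Ash1l, chr3:89024596-89024795, plus strand, lower in LI: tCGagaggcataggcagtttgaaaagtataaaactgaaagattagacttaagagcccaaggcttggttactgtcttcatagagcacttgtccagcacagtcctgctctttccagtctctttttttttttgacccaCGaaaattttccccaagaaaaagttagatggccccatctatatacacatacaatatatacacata
Nsd2, chr5:33883682-33883881, plus strand, higher in LI: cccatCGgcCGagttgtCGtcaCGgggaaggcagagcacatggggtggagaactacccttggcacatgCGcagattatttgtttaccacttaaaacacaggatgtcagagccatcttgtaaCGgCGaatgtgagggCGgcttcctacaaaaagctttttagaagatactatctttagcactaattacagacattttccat
Setd3, chr12:108111551-108111750, minus strand, higher in LI: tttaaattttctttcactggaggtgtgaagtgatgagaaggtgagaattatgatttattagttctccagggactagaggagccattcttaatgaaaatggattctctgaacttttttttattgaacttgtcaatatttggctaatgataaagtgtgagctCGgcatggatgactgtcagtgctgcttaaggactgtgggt
The windows of Setd2, Ash1l, Nsd2 and Setd3 held 1, 2, 8 and 1 CG dinucleotides and had a GC content of 48.0%, 38.5%, 46.5% and 37.5%. In these 4 windows the number of CG dinucleotides did not separate the peaks higher in LI from those lower in LI.

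Nsd1 (ENSMUSG00000021488.8, chr13:55209782-55318325, plus strand) encodes a mono- and dimethyltransferase of H3K36. Its 64 peaks summed to 764 RPKM in spleen and 643 RPKM in LI, a log2 ratio of -0.25 with an interval of -0.35 to -0.14. Of the Nsd1 peaks, 47 were higher in spleen and 17 in LI, and 6 of 64 were over 2-fold higher in spleen and 0 in LI, against 9.6% and 9.05% of all peaks. The ratio was -0.21 in the 5' part and -0.18 in the 3' part, and the interval of the difference between the parts was -0.11 to 0.18. In segment 5 the coverage was 5.55 RPKM in spleen and 3.96 RPKM in LI, and in segment 6 it was 8.47 and 6.06 RPKM. In the 3' end of the gene the libraries were closer, with 12.8 RPKM in spleen and 13.0 RPKM in LI in segment 10. Its strongest peak, 4.78 kb of coding sequence and introns 102.5 kb from the start, had 22.6 and 22.9 RPKM. After the correction for GC content the ratio of the gene was -0.096, with an interval of -0.20 to 0.0097.

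Nsd2 (ENSMUSG00000057406.16, chr5:33820725-33897975, plus strand) encodes a dimethyltransferase of H3K36 that is lost in Wolf-Hirschhorn syndrome. It carried the fewest peaks. Its 27 peaks summed to 268 RPKM in spleen and 278 RPKM in LI, a log2 ratio of 0.050 with an interval of -0.14 to 0.24. Of the 7 genes it had the smallest part of the body under peaks, 27.4%, and the mark was gathered at its 3' end. Segments 1 and 2 had no peak, segment 5 had 2.07 RPKM in both libraries, and segment 10 had 14.7 RPKM in spleen and 14.4 RPKM in LI. A peak of 1.05 kb in an intron 63.1 kb from the start, chr5:33883257-33884307, had 9.27 RPKM in spleen and 17.4 RPKM in LI. Its log2 ratio of 0.88, with an interval of 0.25 to 1.5, was the highest of the 101 long peaks and was 0.83 after the correction. Repeats made up 52.6% of this peak. The last Nsd2 peak, 1.84 kb centred in the 3' untranslated region, went the other way with 19.3 RPKM in spleen and 13.0 RPKM in LI, a log2 ratio of -0.55 with an interval of -0.96 to -0.15. Between them, the longest Nsd2 peak, of 3.91 kb and the strongest by the sum of the libraries, had 17.0 and 18.5 RPKM.

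Nsd3 (ENSMUSG00000054823.16, chr8:25601601-25719667, plus strand) encodes the third NSD protein and also a short form without the SET domain. Its 48 peaks summed to 645 RPKM in spleen and 547 RPKM in LI, a log2 ratio of -0.24 with an interval of -0.35 to -0.13. Of these peaks, 36 were higher in spleen and 12 in LI. The difference rested on its short peaks. With peaks weighted by their length the ratio was -0.065, with an interval of -0.13 to 0.0002, and over its 18 peaks of 1 kb or more it was -0.073. Nsd3 held the longest peak of the 7 genes, 7.30 kb at chr8:25696383-25703685, which was also its strongest and had 23.4 RPKM in spleen and 24.2 RPKM in LI. In segment 9, where that peak lies, the coverage was 19.8 and 20.2 RPKM.

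Ash1l (ENSMUSG00000028053.13, chr3:88950622-89079375, plus strand) encodes a Trithorax group protein that dimethylates H3K36. It had the lowest ratio of the 7 genes. Its 49 peaks summed to 563 RPKM in spleen and 454 RPKM in LI, a log2 ratio of -0.31 with an interval of -0.44 to -0.18, and after the correction of -0.16 with an interval of -0.29 to -0.030. Of these peaks, 40 were higher in spleen and 9 in LI, and of the 17 peaks of 1 kb or more 15 were higher in spleen. All 9 segments with a peak were lower in LI. The coverage of segment 9 was 14.0 RPKM in spleen and 11.6 RPKM in LI, and that of segment 10 was 16.5 and 15.0 RPKM. The lowest ratio of a long Ash1l peak, -0.74 with an interval of -1.27 to -0.21, was found 74.1 kb from the start at chr3:89023766-89025627, with 12.0 RPKM in spleen and 6.99 RPKM in LI. The longest Ash1l peak, 6.53 kb, had 14.9 RPKM in spleen and 12.4 RPKM in LI, and the strongest by the sum of the libraries, 3.18 kb, had 18.1 and 18.4 RPKM.

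Setd3 (ENSMUSG00000056770.15, chr12:108106431-108179314, minus strand) was first reported as an H3K36 methyltransferase and is known as the enzyme that methylates a histidine of actin. Its 44 peaks summed to 509 RPKM in spleen and 511 RPKM in LI, a log2 ratio of 0.0059 with an interval of -0.12 to 0.13. The sum hid a difference along the gene. The 5' part had 6.19 RPKM in spleen and 5.83 RPKM in LI, and the 3' part had 6.25 and 7.09 RPKM. The log2 ratios of the parts, -0.086 and 0.18, differed by 0.27 with an interval of 0.064 to 0.47, and by 0.20 after the correction. No interval was worked out for the corrected difference, and such differences were not taken over all genes. In segment 10 the coverage was 8.88 RPKM in spleen and 12.0 RPKM in LI, a log2 ratio of 0.43 with an interval of 0.18 to 0.69, which stayed at 0.42 after the correction. That segment held the long peak with the highest ratio of the gene, chr12:108110502-108112800, which had 10.9 RPKM in spleen and 17.0 RPKM in LI. Its log2 ratio was 0.62 with an interval of 0.22 to 1.02, its GC content 45.0% and its share of repeats 7.70%. The long Setd3 peak with the lowest ratio, chr12:108160423-108161501, had 16.4 RPKM in spleen and 10.9 RPKM in LI. That log2 ratio was -0.57 with an interval of -1.15 to 0.0016.

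Setd5 (ENSMUSG00000034269.12, chr6:113077365-113153435, plus strand) encodes a SET domain protein of neurodevelopment whose activity on H3K36 is disputed. Its 35 peaks summed to 380 RPKM in spleen and 340 RPKM in LI, a log2 ratio of -0.16 with an interval of -0.31 to -0.0052. Its peaks had the lowest GC content of the 7 genes, 40.6%, and the ratio was 0.090 after the correction, with an interval of -0.067 to 0.25. Of its 10 peaks of 1 kb or more, 9 were higher in spleen, and the interval of each held 0. The strongest and longest, 4.75 kb at the 3' end, had 23.4 RPKM in spleen and 21.5 RPKM in LI. Segments 1 to 3 had no peak. The coverage was 15.3 RPKM in spleen and 14.5 RPKM in LI in segment 6, 4.64 and 4.16 RPKM in segment 7, and was 18.9 and 16.8 RPKM in segment 10.

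Since the peak set was merged over both libraries, it fixed which stretches of a gene could carry signal. Within these, the segment with the highest coverage was the same in both libraries in 6 of the 7 genes. It was segment 10 in Setd2, Nsd2, Ash1l and Setd5, segment 9 in Nsd3 and segment 3 in Setd3, while in Nsd1 it was segment 9 in spleen and segment 10 in LI. The 3' part had 10.8 times the coverage of the 5' part in spleen and 12.2 times in LI in Nsd2. In Nsd3, Ash1l and Setd5 this ratio was between 3.61 and 4.27, in Setd2 1.61 and 1.91, in Nsd1 1.48 and 1.52, and in Setd3 1.01 and 1.22. In Setd2 the values of segment 10 and of the 3' part include part of the 26.2-kb peak centred outside the gene.

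**Figure D2:**
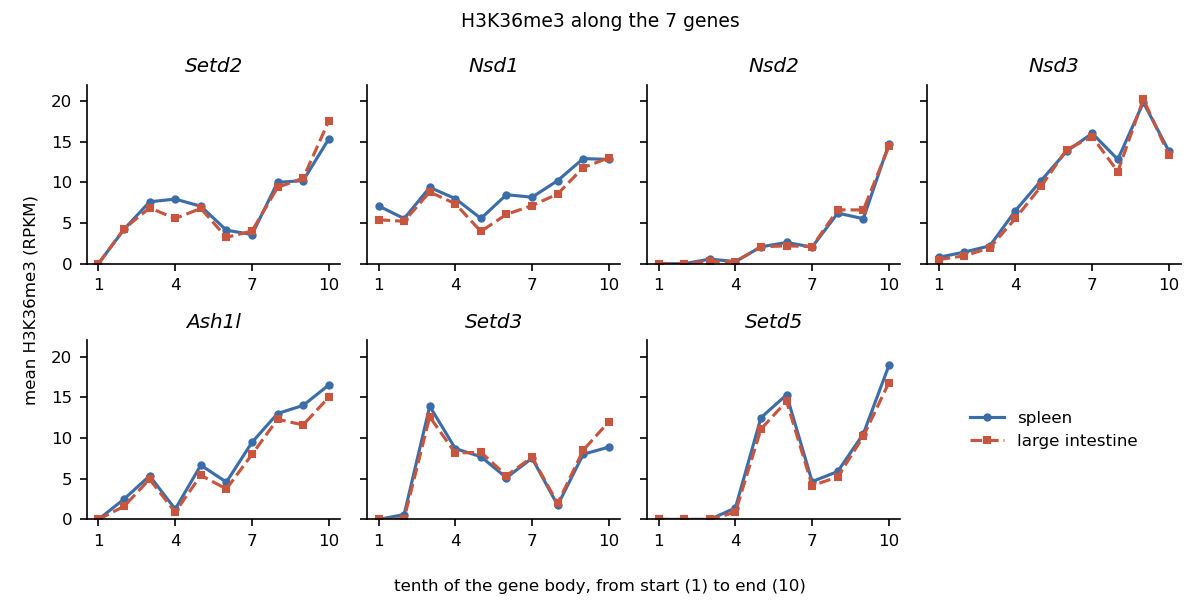
Mean H3K36me3 coverage in RPKM, with bases outside peaks at 0, is plotted in 10 equal segments of each gene body from start to end for spleen (circles, solid) and LI (squares, dashed). The lines of the libraries lie close together in each gene. Setd2 and Setd3 are higher in LI in segment 10, at 17.5 and 12.0 RPKM. For Setd2 this segment includes part of a 26.2-kb peak centred outside the gene, so its higher value cannot be credited to Setd2.

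The first peak of any length began at different distances from the start. This was 0.885 kb in Nsd3, 2.7 kb in Nsd1, 10.9 kb in Setd2, 12.0 kb in Setd3, 15.2 kb in Ash1l, 17.7 kb in Nsd2 and 27.4 kb in Setd5. Peaks of 1 kb or more began further in, except in Ash1l, so shorter peaks lay before them. The first peak of 1 kb or more lay 5.99 kb from the start in Nsd1, 14.6 kb in Setd3, 14.7 kb in Setd2, 15.2 kb in Ash1l, 30.2 kb in Nsd3, 31.7 kb in Setd5 and 58.8 kb in Nsd2. As a share of the gene body this was 5.52% in Nsd1 and 76.1% in Nsd2, and lay between 11.8% and 41.7% in the others. Among 4318 protein-coding genes of 20 kb or more with such a peak, the median share was 34.0%, with quartiles of 15.7% and 62.3%. Nsd1 lay at percentile 5.74 of these genes and Nsd2 at percentile 84.8, and the other members lay between percentiles 18.2 and 57.5.

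In Setd5 and Ash1l the mark set in at or near the start of a shorter annotated coding transcript, and in Nsd3 the coverage rose gradually across one. In Setd5 the coverage was 0.130 RPKM in spleen and 0.0815 RPKM in LI upstream of such a start 27.7 kb into the gene, and 10.8 and 9.83 RPKM from there on. In Nsd3 it was 1.34 and 1.04 RPKM upstream of a start at 38.7 kb and 13.8 and 13.3 RPKM from there on, with a peak 0.057 kb downstream of this start. The rise was spread over several segments: segments 3, 4, 5 and 6 had 2.19, 6.52, 10.2 and 13.8 RPKM in spleen. In LI they had 1.95, 5.56, 9.49 and 14.0 RPKM. In Ash1l no peak lay upstream of a start at 15.2 kb, and the first peak began 0.051 kb after it. Nsd3 had 11 of its 48 peaks upstream of its start. In Nsd2 the next peak began 3.11 kb after such a start, and in Setd2 a start at 41.0 kb parted 5.27 and 4.56 RPKM upstream from 8.56 and 8.87 RPKM downstream. The 5' and 3' parts of Setd2 of equal length gave nearly the same values, 5.36 and 4.69 RPKM against 8.62 and 8.94 RPKM. In Setd2 the values downstream of the start and in the 3' part include part of the 26.2-kb peak centred outside the gene. Where coverage rises toward the 3' end, most cuts give a lower mean upstream, so such a contrast does not mark a start. H3K36me3 does not tell which start was used, and the use of starts was not tested.

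Nsd2 and Nsd3 were covered beyond the annotated ends of their short coding transcripts in both tissues. Coding transcripts also start inside both genes, so this coverage cannot be assigned to the long forms. In Nsd3 the coverage was 6.52 RPKM in spleen and 6.08 RPKM in LI up to the end of the short coding transcripts, and 15.6 and 15.2 RPKM beyond it. In Nsd2 it was 1.06 and 0.971 RPKM up to the end of the short coding transcript and 8.15 and 8.50 RPKM beyond it. At the other end of Setd2 a peak of 26.2 kb, chr9:110616942-110643097, reached 1.69 kb into the gene and ran on over the genes Nradd and Nbeal2 on the minus strand. It had 38.2 RPKM in spleen and 50.5 RPKM in LI, and its midpoint lay outside Setd2, so it was not part of the sum.

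Single peaks of the 7 genes were mostly lower in LI. Of the 331 peaks, 110 (33.2%) were higher in LI, against 49.0% of all peaks, and their median log2 ratio was -0.17, against -0.014. Over 2-fold differences were seen in 14 peaks (4.23%) higher in LI and 27 (8.16%) higher in spleen, against the same 9.05% and 9.6% of all peaks. Introns held 276 of the 331 peaks by their midpoint (83.4%), coding exons 20 and untranslated regions 13. Another 13 had the midpoint within 1 kb of a coding start and 9 in other exons. Counted by overlap instead, 91 of the 331 peaks touched a coding exon. The peaks of 1 kb or more, which hold more reads, spread less: the SD of their log2 ratios was 0.293, against 0.723 in the shorter ones.

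In the 101 peaks of 1 kb or more no ratio passed 2-fold in either direction, against 1.78% of such peaks over all genes higher in LI and 0.792% higher in spleen. Of these 101 peaks, 33 (32.7%) were higher in LI, against 51.4% of all long peaks. The counting interval lay above 0 in 2 peaks, 1 each in Nsd2 and Setd3, against 12.6% of all long peaks. It lay below 0 in 11 peaks of the 101, near the 8.56% of all long peaks. Of these 11, 6 were in Ash1l, 3 in Nsd1 and 1 each in Setd2 and Nsd2. After the correction for GC content the ratios of these 11 ran from -0.66 in Setd2 to -0.15 in Ash1l. Those of the 3 Nsd1 peaks were -0.33, -0.18 and -0.30, and those of the 2 peaks above 0 were 0.83 and 0.66. Corrected intervals of single peaks were not worked out, so how many stay off 0 is not given. The long peaks of Setd3 had a median log2 ratio of 0.23, and those of Ash1l of -0.24.

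**Figure D3:**
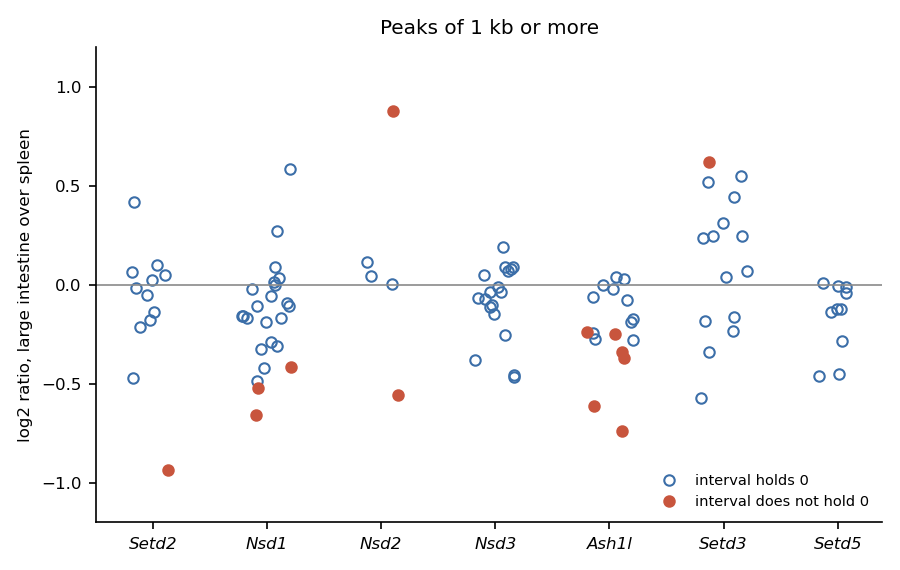
The log2 ratio of LI over spleen is plotted for the 101 peaks of 1 kb or more by gene, spread sideways for view only. Filled points are the 13 peaks whose counting interval does not hold 0, without the correction for GC content. Ash1l has 6 of them, all below 0, and the ratios lie between -0.94 in Setd2 and 0.88 in Nsd2.

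The ratios of the peaks of the 7 genes followed their GC content much as the other peaks did. In peaks under 42% GC the median log2 ratio was -0.27 over the 145 peaks of these genes and -0.29 over all peaks. It was -0.15 and -0.083 between 42% and 46%, -0.031 and 0.053 between 46% and 50%, and 0.25 and 0.20 at 50% or more, where the 7 genes had 17 peaks. After the correction 150 of the 331 peaks (45.3%) were higher in LI, against 48.9% of all peaks, and the median ratio was -0.044. Past 2-fold were then 15 of the 331 peaks higher in LI and 17 higher in spleen, against 8.39% and 9.02% of all peaks.

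**Figure D4:**
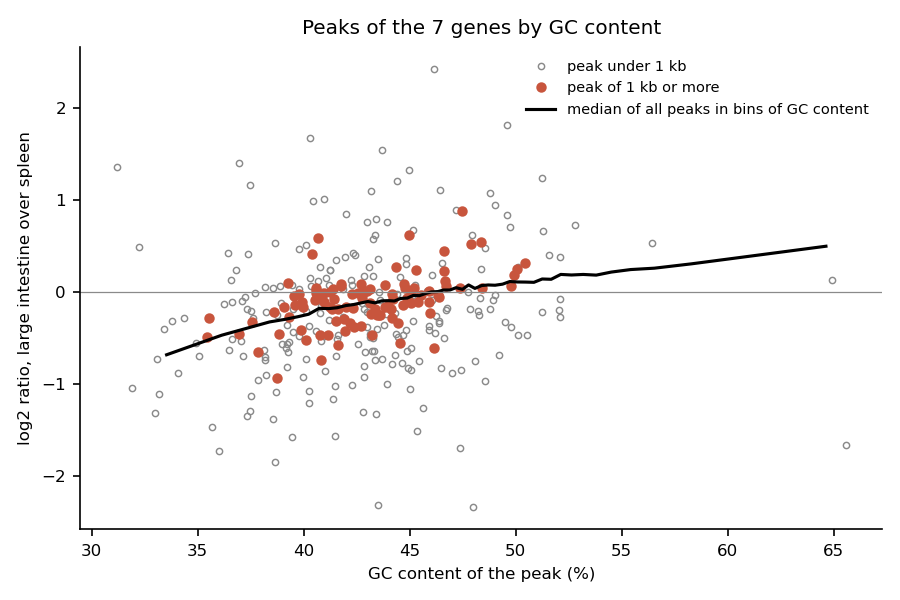
The log2 ratio of LI over spleen is plotted against the GC content of each of the 331 peaks of the 7 genes, with filled points for peaks of 1 kb or more. The line is the median ratio of all peaks in bins of GC content, and the points lie around it, with a median GC content of 42.9%.

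Per length of the gene, the mark was strongest on Nsd3 and weakest on Nsd2 in both tissues. The mean coverage over the body, with bases outside peaks at 0, was 9.72 RPKM on Nsd3 in spleen, 8.81 on Nsd1, 7.33 on Ash1l, 6.88 on Setd5, 6.24 on Setd2, 6.22 on Setd3 and 3.40 on Nsd2. In LI the order was Nsd3 at 9.29 RPKM, Nsd1 at 7.73, Setd3 at 6.46, Ash1l at 6.34, Setd5 at 6.27, Setd2 at 5.82 and Nsd2 at 3.45. Among neighbours in the spleen order, Setd2 and Setd3 could not be told apart (ratio 1.00, counting interval 0.933 to 1.08), and Ash1l and Setd5 barely (1.07, 1.00 to 1.13). In LI the interval held 1 between Setd3 and Ash1l and between Ash1l and Setd5. Among protein-coding genes with a peak, Nsd3 lay at percentile 75.0 of this level in spleen and 72.7 in LI, Setd2 at 60.4 and 57.6, and Nsd2 at 43.7 and 43.5. Peaks covered between 27.4% of the body in Nsd2 and 64.2% in Nsd1.

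The other genes of the H3K36 methylation pathway, 38 in number, had a median log2 ratio of -0.016 over the 34 with a peak, against -0.16 over the 7 methyltransferase genes. After the correction for GC content these medians were -0.044 and -0.0050, so the order turned. Kdm4d, Zcwpw1, Setmar and Prdm9 had no peak. None of the 34 was past 2-fold, 16 were higher in LI and 18 in spleen. The counting interval lay above 0 in 3, the demethylase genes Kdm2b (0.13) and Kdm4b (0.15) and the DNA methyltransferase gene Dnmt3b (0.33), against 18.0% of all genes. It lay below 0 in 6, against 15.3% of all genes: among them were the demethylase gene Kdm2a (-0.27), the reader genes Psip1 (-0.36) and Mtf2 (-0.53), the kinase gene Cdk12 (-0.23) and Smyd2 (-0.70). The corrected ratios were 0.047 in Kdm2b, -0.078 in Kdm4b, -0.059 in Kdm2a and 0.014 in Cdk12, so that Kdm4b and Cdk12 changed direction, while Dnmt3b (0.21), Psip1 (-0.18), Mtf2 (-0.35) and Smyd2 (-0.91) kept theirs. Smyd2, a SET domain gene reported to act on H3K36, was the only one past 1.5-fold, with 61.5 RPKM in spleen and 37.7 RPKM in LI over 5 peaks. Its interval was wide, -1.24 to -0.15. Its mean coverage over the body was low, 0.597 RPKM in spleen and 0.35 RPKM in LI. The medians over protein-coding genes with a peak were 4.34 and 4.48 RPKM.

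**Figure D5:**
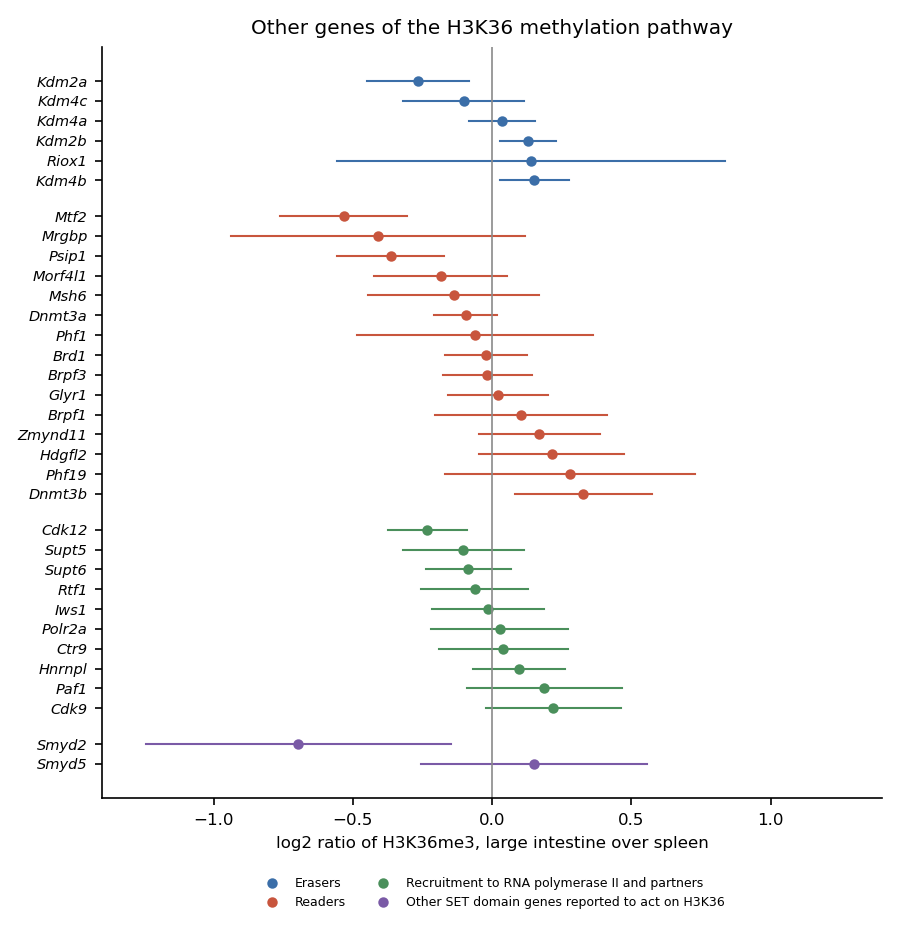
The log2 ratio of summed H3K36me3 in LI over spleen is plotted for 33 of the 34 other genes of the H3K36 methylation pathway, grouped by role, with 95% intervals for counting error. Smyd2 lies lowest at -0.70 and Dnmt3b highest at 0.33.

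Genes with a profile like that of Setd2 were sought by Pearson's r over 20 values, the log2 coverage of 10 segments in 2 libraries, among 3788 protein-coding genes. The nearest were Srp68 (r = 0.970), Rpn2 (r = 0.958) and Safb (r = 0.954), whose summed ratios between the tissues were -0.012, 0.045 and 0.0046. Of the other members, Ash1l was nearest to Setd2 (r = 0.829), followed by Setd3 (0.709), Nsd2 (0.657), Nsd3 (0.643), Setd5 (0.536) and Nsd1 (0.523). The share of compared genes with a lower r was 91.9% for Ash1l, 81.0% for Setd3, 74.9% for Nsd2 and 73.4% for Nsd3. It was 55.0% for Setd5 and 52.2% for Nsd1, near the middle of all compared genes. The segments of 1 gene share their libraries and neighbour each other, so these values describe likeness of shape and no more.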

How the data were processed

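H3K36me3 ChIP-seq of sorted Treg cells was analysed in 1 spleen and 1 LI library. The input, spleen chromatin, was not analysed here. The authors aligned 75-nt reads to mm10 (the submitters' processing notes list Bowtie2), called peaks with MACS2 against the input, merged them with bedtools and deposited mean RPKM coverage per merged peak in a table named as raw counts. No count test was run, since these values are not counts. The columns were scaled to equal totals, peaks were assigned by midpoint to GENCODE M21 bodies, and values were summed per gene. Ratios of peaks and gene sums are log2((LI + 0.5)/(spleen + 0.5)), a scale that understates changes of low genes. Ratios of segments and of the 5' and 3' parts were taken without the added 0.5. Steps of 1.69 (spleen) and 1.31 RPKM (LI), the worth of 1 read in a 20-bp bin, gave the depth and approximate reads per peak. Intervals cover counting error only. The GC correction subtracted medians of 50 GC bins, centred on the overall median. Genome bases came from RefSeq GRCm38.p6, whose promoter table matched 3 of the 7 genes. Python 3.11.15, pandas 2.3.3 and pysam 0.24.0 were used, and interval code was tested on simulated data. The members and lists were chosen with earlier results of these data known. The rule for naming covered all 7 genes, pathway genes past 1.5-fold and 3 genes most like Setd2. It also covered the strongest (by the sum of both libraries), longest, highest-ratio and lowest-ratio long peaks of each of the 7 genes. For several of these genes only part of those peaks is reported here. Peaks with an interval off 0, segments, pathway genes with such intervals and transcript starts were named after their values were seen. A few genes of the lists are counted but not reported by name here.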

Additional observations from a re-analysis of the deposited data

How the results depend on the processing

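Leaving out replicates was not possible with 1 library per tissue. No paired analysis was possible because each tissue had 1 library and the result comes from no test. Of 84 alternative ratios of the 7 genes under 12 settings, 72 stayed within the counting interval of the reported ratio. This count includes settings that hardly change the data: using only peaks wholly in the body left the ratio of each gene as reported. With the GC correction the log2 ratio was 0.072 in Setd2, -0.096 in Nsd1, -0.16 in Ash1l and, turned in direction, 0.090 in Setd5, and 2 genes had an interval below 0. With peaks weighted by length and the GC correction together, a setting added after seeing the data, the ratios were 0.061 in Setd2, -0.033 in Nsd1, -0.030 in Nsd3, -0.10 in Ash1l and 0.070 in Setd5, and 1 gene had an interval below 0. Weighting peaks by length alone gave -0.065 in Nsd3, and peaks of 1 kb or more gave -0.073 in Nsd3 and 0.13 in Setd3. The number of member peaks over 2-fold higher in LI was 1 with a pseudocount of 5 and 0 among peaks of 1 kb or more, and the number higher in spleen was 5 and 0, and 17 with the GC correction. Over all genes, 625 were over 2-fold higher in LI and 458 in spleen without the filter on low values, and with a pseudocount of 5, 138 were higher in spleen. The cause of these changes was not tested, apart from the GC content that the correction itself uses. Taking reads as 75 bp long, also added after seeing the data, gave 5 genes with an interval below 0, against 4, and so did scaling to the length-weighted totals, where Setd2 was added (-0.13, interval -0.27 to -0.0040). There were 3 such genes with the values as deposited and without the strongest peak, where Setd5 was lost (upper bounds 0.040 and 0.0022), and among peaks of 1 kb or more, where Nsd3 was lost. Weighting by length lost Nsd3 and added Setd2. The small number of reads in short peaks limits the ratios of single peaks, and no setting replaces replicates.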
